A study of Mus musculus with 14 samples.

Results

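Skeletal muscle that loses mass switches on a set of genes often called atrogenes. At the core of the set are the E3 ubiquitin ligases Fbxo32 (atrogin-1) and Trim63 (MuRF1), which mark muscle proteins for breakdown by the proteasome. FOXO transcription factors, which insulin signalling through AKT keeps out of the nucleus, raise the transcription of both ligases, and the secreted factor myostatin acts on the same program from outside the fibre. This account follows 10 such genes in intervertebral disc (IVD) RNA from diabetic mice: the ligase genes Fbxo32, Trim63, Fbxo30, Fbxo21 and Cblb, the ligand gene Mstn, the receptor gene Eda2r, the transcription factor gene Foxo3, and the stress genes Gadd45a and Sesn1. They were taken by gene symbol from the table of gene counts, which lists 55487 genes. Of those, 16915 passed the minimum, a level over 1 CPM (counts scaled to library size) in 3 or more libraries, and all 10 atrophy genes were among them.

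RNA-seq was run on 14 male mice, with the 5 tail discs of each mouse pooled into 1 library. Mice homozygous for the Lepr db mutation, which lack a working leptin receptor (db/db, n = 3), were compared with heterozygous littermates (db/+, n = 3), both at 12 weeks of age and untreated. C57BL/6 mice that were 12 weeks old at the start received a high-fat diet over a lead-in of 4 to 6 weeks, 1 injection of streptozotocin at 100 mg/kg, a toxin of insulin-producing cells, and the same diet for 12 weeks more (STZ-HFD, n = 4). Their controls received chow and buffer (Con+Veh, n = 4), and the labels name them wild type. The question put to the atrophy genes was whether their transcripts differed in the discs of either diabetic model, and whether the 2 models differed from each other.

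Total counts ran from 16076908 to 58943169 per library. Genes annotated as ribosomal RNA held 28.1% to 39.7% of the counts in db/+ and db/db libraries. In Con+Veh and STZ-HFD libraries they held 44.4% to 60.2%. Of 10 disc markers, 9 passed the expression minimum, and the summed level of the 10 was 36608 to 58380 CPM in db/+, 17334 to 44213 in db/db, 8027 to 17973 in Con+Veh and 4790 to 9665 in STZ-HFD. The largest part of the sum came from Chad in db/+ (mean 28154 CPM) and from Car3 in STZ-HFD (mean 5230 CPM). The sums of different groups thus rest on different genes. Shh, a notochord gene, had no count in db/+. All 14 skeletal muscle markers were detected in every group, with sums of 5447 to 10276 CPM in db/+, 3508 to 5828 in db/db, 9568 to 13220 in Con+Veh and 10179 to 28173 in STZ-HFD. STZ-HFD replicate 1 stood apart: it had counts in 42626 genes, against 25194 to 29924 in the other 13 libraries, and the median of 1138 odorant receptor genes was 0.396 CPM per kb against 0 elsewhere. Spread over exon length, that rate would supply 6.84% of the Trim63 counts and 7.15% of the Fbxo32 counts of that library, but 30.1% for Fbxo30, 32.98% for Eda2r and 35.4% for Gadd45a.

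A gene was called when limma's Benjamini-Hochberg adjusted p was under 0.05 and the log2 fold change was at least 1 in size. In db/db, 1 of the 10 atrophy genes was called, Fbxo30, which rose, beside 1.66% of all genes tested (1.23% higher and 0.432% lower). In STZ-HFD, 1 of 10 was called, Trim63, which rose, beside 2.61% of all genes tested (1.3% higher and 1.31% lower). The response itself differed between the models for 1 of 10, again Trim63, beside 1.77% of all genes. The median log2 fold change of the 10 genes was 0.16 in db/db and 0.55 in STZ-HFD, against -0.04 and -0.04 over all genes tested. None of the 10 was called lower in either model by limma, edgeR or DESeq2. At an unadjusted p under 0.05, limma, edgeR and DESeq2 each placed 1 gene lower in db/db (Trim63), where limma placed 10.4% of all genes tested, and 0 lower in STZ-HFD, where it placed 9.54%. At the same p, each tool placed 1 gene higher in db/db (Fbxo30), beside 10.7% of all genes in limma. In STZ-HFD limma and DESeq2 placed 4 of 10 higher (Eda2r, Fbxo32, Mstn and Trim63) and edgeR 3 (without Mstn), beside 8.34% of all genes in limma.

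**Figure D1:**
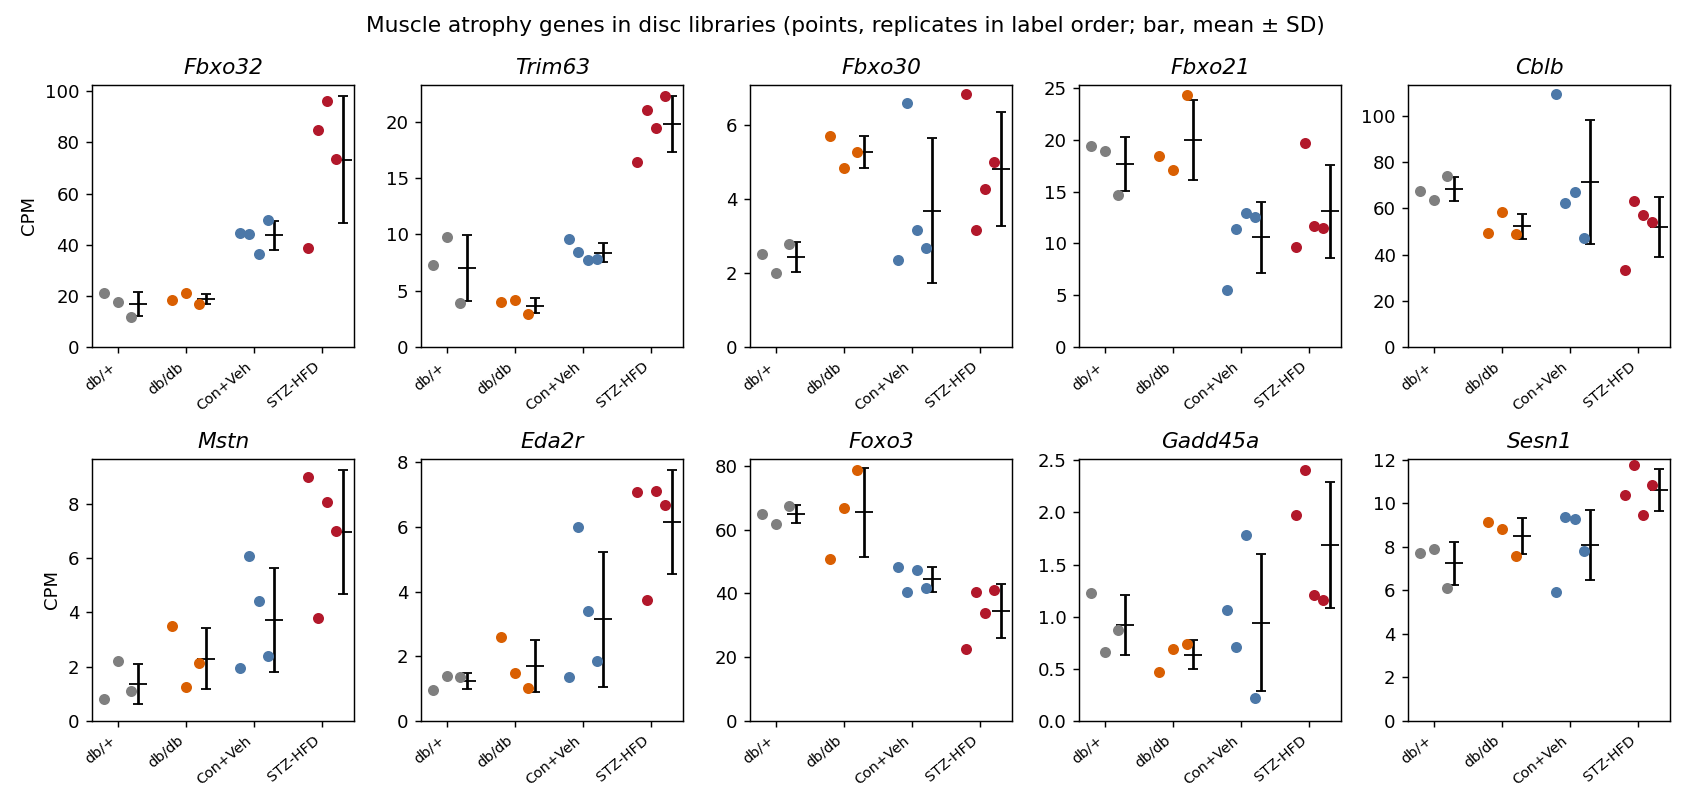
Level of each atrophy gene in CPM (linear axes from 0), 1 point per library in label order, with the mean ± SD of each group as a bar beside it. Trim63 in STZ-HFD lay above all Con+Veh libraries, Fbxo30 in db/db lay above all db/+ libraries, and STZ-HFD replicate 1 fell among the Con+Veh points for Fbxo32.

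Trim63 encodes MuRF1, a RING-type ligase bound to the sarcomere that ubiquitinates thick-filament proteins. The gene lies on chromosome 4 from 134315120 to 134329629 on the plus strand (GRCm38). In Con+Veh its level was 9.59, 8.44, 7.75 and 7.77 CPM in replicates 1 to 4. In STZ-HFD it was 16.4, 21.0, 19.4 and 22.3 CPM. The lowest STZ-HFD library thus stood above the highest Con+Veh library, and the means were 8.39 ± 0.863 and 19.8 ± 2.51 CPM (SD, n = 4 each). This was a 2.57-fold rise, a log2 fold change of 1.36 (SE 0.25, limma adjusted p = 0.0104). The db/db model showed the opposite sign, with 7.30, 9.79 and 3.93 CPM in db/+ and 3.95, 4.15 and 2.89 CPM in db/db. There db/+ replicate 3 lay within the db/db range, and the log2 fold change of -0.90 (95% interval -1.53 to -0.27, limma adjusted p = 0.108) did not pass. Set against each other in the same model, the Trim63 responses differed by -2.26 on the log2 scale (SE 0.39, db/db response minus STZ-HFD response, limma adjusted p = 0.0176). The order of the group means was db/db, db/+, Con+Veh, STZ-HFD, and only the last step was free of overlap between neighbouring groups.

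With no filter on low counts Trim63 lost its STZ-HFD call (log2 1.37, limma adjusted p = 0.057), and Fbxo32 was called in its place (1.01, limma adjusted p = 0.046). The call on Trim63 held without STZ-HFD replicate 1 (log2 1.38, limma adjusted p = 0.010). It was lost without Con+Veh replicate 3 (adjusted p = 0.206), Con+Veh replicate 4 (0.091), STZ-HFD replicate 3 (0.097) or STZ-HFD replicate 4 (0.051) in limma, while the log2 fold change stayed between 1.29 and 1.39. In those fits, in the same order, 0.102%, 0.108%, 0.107% and 0.972% of all genes tested were called in STZ-HFD, against 2.61% with all libraries. By edgeR's quasi-likelihood test the log2 fold change was 1.24 (adjusted p = 0.078), and by DESeq2 it was 1.25 (adjusted p = 0.0029). The difference between the models lost its call in limma without db/+ replicate 2 (-1.89, adjusted p = 0.053) and without Con+Veh replicate 3 (-2.21, adjusted p = 0.117).

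The 250 bases before the RefSeq start of Trim63 are shown because this gene carried the clearest response, together with those of Eda2r, the only other atrophy gene whose window held a FOXO match, and of Fbxo30, the gene called in db/db. Windows were found in the RefSeq table (GRCm38.p6) for 9 of the 10 genes, all but Fbxo32. They were searched on both strands for the FOXO motif GTAAACA and the glucocorticoid receptor motif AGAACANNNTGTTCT. The E-box was searched as CANNTG, and the core promoter box that binds TBP was searched as TATAAA. The shorter palindrome GAACANNNTGTTC, which lies inside the glucocorticoid receptor motif, was added after the Trim63 sequence had been seen. Capitals mark matches to the FOXO, palindrome and TATA letters, and each sequence runs 5′ to 3′ on the strand of its gene.
Trim63 (chr4:134314870-134315119, plus strand): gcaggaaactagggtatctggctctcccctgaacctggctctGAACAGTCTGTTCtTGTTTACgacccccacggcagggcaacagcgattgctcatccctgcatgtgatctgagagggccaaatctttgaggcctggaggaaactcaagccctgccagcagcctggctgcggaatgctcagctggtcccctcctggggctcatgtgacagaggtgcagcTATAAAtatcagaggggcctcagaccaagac
Eda2r (chrX:97377210-97377459, minus strand): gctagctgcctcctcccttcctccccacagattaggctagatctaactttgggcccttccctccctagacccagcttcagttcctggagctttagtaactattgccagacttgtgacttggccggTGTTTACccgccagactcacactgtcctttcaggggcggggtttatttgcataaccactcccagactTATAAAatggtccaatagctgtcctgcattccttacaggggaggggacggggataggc
Fbxo30 (chr10:11281337-11281586, plus strand): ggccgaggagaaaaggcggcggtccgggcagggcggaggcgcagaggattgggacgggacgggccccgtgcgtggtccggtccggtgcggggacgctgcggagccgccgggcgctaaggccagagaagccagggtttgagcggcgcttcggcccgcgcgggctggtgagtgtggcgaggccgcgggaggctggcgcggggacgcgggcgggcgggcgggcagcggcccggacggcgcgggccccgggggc

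In Trim63 the FOXO letters began 194 bases before the start, the palindrome 208 bases and the TATA letters 31 bases, so the palindrome ended next to the FOXO match without overlapping it. In Eda2r the FOXO letters began 125 bases and the TATA letters 58 bases before the start. The FOXO letters occurred in 3.17% of 32851 windows of the same length, the TATA letters in 12.4%, the E-box in 66.2% and the palindrome in 0.0396%, while the full glucocorticoid receptor motif occurred in 0.00913% and in no window of the 9 genes. Trim63 held 3 E-boxes and Mstn held 4. The Fbxo30 window was 80.4% G and C and held none of these letters. A match describes the sequence only, and binding was not measured in these mice.

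Fbxo32 encodes atrogin-1, the F-box subunit of a ligase complex whose targets include the translation factor eIF3f. Its level in Con+Veh was 44.4, 44.2, 36.2 and 49.8 CPM. In STZ-HFD it was 38.6, 85.0, 96.0 and 73.6 CPM. STZ-HFD replicates 2 to 4 stood above every control, whereas replicate 1 fell inside the control range. The log2 fold change was 0.93 (SE 0.22, limma adjusted p = 0.0317), a 1.901-fold difference. In limma the gene thus passed the adjusted p, as 3.45% of all genes tested did at any fold change, and missed the minimum on fold change. By edgeR's quasi-likelihood test the log2 fold change was 0.75 (adjusted p = 0.269) and by DESeq2 0.76 (adjusted p = 0.131), so neither passed the adjusted p. Over the 12 alternative processing settings, these 2 included, the limma, edgeR or DESeq2 adjusted p ran from 0.026 to 0.823. Without STZ-HFD replicate 1 Fbxo32 was called (log2 1.05, limma adjusted p = 0.011), which made 2 of the 10 genes called in STZ-HFD, beside 3.18% of all genes tested in that fit. Conversely, the adjusted p was 0.447 without Con+Veh replicate 3, 0.347 without STZ-HFD replicate 3, 0.117 without Con+Veh replicate 4 and 0.096 without STZ-HFD replicate 4 in limma. In db/+ Fbxo32 stood at 21.0, 17.7 and 11.9 CPM and in db/db at 18.2, 20.9 and 17.0 CPM. Those groups overlapped (log2 0.17, 95% interval -0.38 to 0.72, limma adjusted p = 0.757). The responses of the 2 models differed by -0.76 (95% interval -1.48 to -0.04), with a limma adjusted p of 0.26. All 3 db/+ and all 3 db/db libraries lay below all 8 libraries of the other model, a gap between cohorts that no comparison of the study tests.

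Skeletal muscle markers moved in the same direction as Trim63 in both models, and in the same direction as Fbxo32 in STZ-HFD but not in db/db. In STZ-HFD 6 of 14 muscle markers were called higher and 0 lower (median log2 fold change 1.08), among them Acta1, the skeletal muscle actin gene, at 1.46 (SE 0.31, limma adjusted p = 0.0189), and Pvalb, a calcium buffer of fast fibres, at 1.59 (SE 0.31, limma adjusted p = 0.0121). In db/db 1 of 14 was called lower, Myh1, a fast myosin heavy chain (-1.66, SE 0.31, limma adjusted p = 0.0208), and all 14 had a negative sign, with a median of -0.93, against 0.17 for Fbxo32. With the mean log2 level of the muscle markers as a covariate in the limma model, the STZ-HFD difference was 0.68 for Trim63 (adjusted p = 0.353) and 0.31 for Fbxo32 (adjusted p = 0.622), and the difference between the models for Trim63 was -0.81 (adjusted p = 0.508). The covariate is correlated with the groups, so a group difference and a difference in muscle content cannot be told apart in these libraries. In bulk RNA, fewer cells of a type and less RNA per cell cannot be told apart either. Other markers moved in STZ-HFD beside the ligase genes: Cd68 (-1.63) and C1qb (-1.11) of 7 macrophage markers, Chad (-4.26), Col2a1 (-1.84), Acan (-1.59) and Comp (-1.45) of 9 tested disc markers and Ibsp (-1.58) of 5 osteoblast markers were called lower, and Plin4 (1.30) of 7 adipocyte markers was called higher. Within the disc and osteoblast lists the signs were mixed. A positive sign was seen for 5 of 9 tested disc markers (median log2 fold change 0.007) and 2 of 5 osteoblast markers. The part of these markers in the results was not tested.

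Expressed per 1000 CPM of muscle markers, Fbxo32 was 3.36, 3.81, 3.79 and 4.18 in Con+Veh and 3.79, 3.35, 3.41 and 3.07 in STZ-HFD. These ranges overlapped, with 3 of 4 STZ-HFD libraries below 3 of the controls. Trim63 on the same scale was 0.725, 0.728, 0.811 and 0.653 in Con+Veh and 1.62, 0.8286, 0.690 and 0.929 in STZ-HFD. Here 3 of 4 STZ-HFD libraries lay above every control and replicate 3 lay within the control range. STZ-HFD replicate 1 was the library that separated the ligases: its muscle marker sum of 10179 CPM was inside the Con+Veh range, its Fbxo32 level was too, and its Trim63 level, 16.4 CPM, was above the highest control, 9.59 CPM. In the db/db model Fbxo32 per 1000 CPM of muscle markers was 2.33, 1.72 and 2.18 in db/+ and 3.12, 5.97 and 4.76 in db/db, without overlap, whereas Trim63 was 0.809, 0.953 and 0.722 in db/+ and 0.678, 1.18 and 0.811 in db/db, with overlap. Fbxo30, Fbxo21, Mstn, Eda2r and Sesn1 were also higher in db/db without overlap on this scale, and Cblb, Foxo3 and Gadd45a overlapped. Of the genes higher without overlap on this scale, only Fbxo30 was also without overlap in CPM. The muscle marker sum that divides them was 5447 to 10276 CPM in db/+ and 3508 to 5828 CPM in db/db. A gene that keeps its CPM while this sum falls rises on this scale. The share of all genes without overlap on this scale was not computed.

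**Figure D2:**
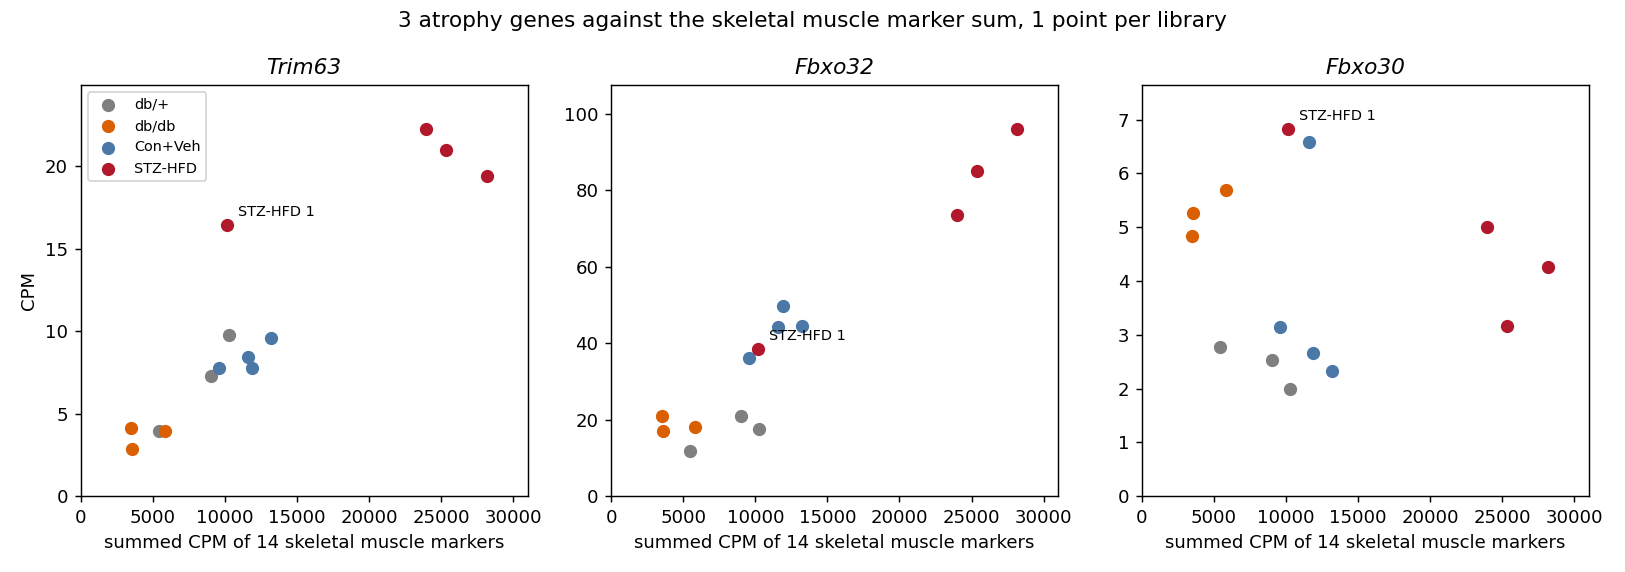
CPM of Trim63, Fbxo32 and Fbxo30 (y axes, linear) against the summed CPM of 14 skeletal muscle markers (x axis), 1 point per library, coloured by group. STZ-HFD replicates 2 to 4 lie at muscle sums of 23965 to 28173 CPM with the highest Trim63 and Fbxo32 levels, and STZ-HFD replicate 1, at 10179 CPM, keeps a high Trim63 level but not a high Fbxo32 level.

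Fbxo30 encodes an F-box protein also known as MUSA1, which BMP signalling holds down in muscle. The gene lies on chromosome 10 from 11281330 to 11298052 (plus strand). Its level was 2.52, 2.00 and 2.78 CPM in db/+ and 5.70, 4.84 and 5.26 CPM in db/db. All 3 db/db libraries were above all 3 db/+ libraries, a pattern found in either direction in 25.8% of all genes tested in this model. The log2 fold change was 1.13 (SE 0.28, limma adjusted p = 0.0449), a 2.20-fold rise. In Con+Veh the gene stood at 2.34, 6.59, 3.15 and 2.66 CPM and in STZ-HFD at 6.82, 3.16, 4.26 and 4.99 CPM. Those groups overlapped through Con+Veh replicate 2, and the log2 fold change of 0.45 had a 95% interval of -0.18 to 1.08 (limma adjusted p = 0.470). The responses of the 2 models differed by 0.69 (95% interval -0.18 to 1.55, limma adjusted p = 0.420), so a difference between the models was not shown for Fbxo30.

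The db/db call on Fbxo30 was near the threshold. Leaving out any of the 6 libraries of the model ended it in limma (without db/+ replicate 3, Trim63 was called lower in its place, at -1.23 and adjusted p = 0.044), with adjusted p of 0.089, 0.162 and 0.072 without db/+ replicates 1, 2 and 3 and 0.123, 0.081 and 0.105 without db/db replicates 1, 2 and 3, at log2 fold changes of 0.97 to 1.23. Leaving out a library of the other model, at log2 fold changes of 1.13 to 1.14, also ended it for Con+Veh replicate 3 (0.051), Con+Veh replicate 4 (0.055), STZ-HFD replicate 1 (0.052) and STZ-HFD replicate 4 (0.052). The longest Fbxo30 transcript is 38.2% G and C, the lowest but 1 of the 10 genes, and with the GC trend of each library removed the log2 fold change was 0.75 (limma adjusted p = 0.131). By edgeR it was 1.11 (adjusted p = 0.322) and by DESeq2 1.13 (adjusted p = 0.170). Adipocyte markers moved beside the db/db calls: 3 of 7 were called higher (Adipoq at 1.67, Plin1 at 1.73 and Retn at 2.75), and their sum was 197 to 433 CPM in db/+ and 331 to 611 CPM in db/db. Of the 7, 6 had a positive sign. Cfd, the marker with the highest level, had the opposite sign (log2 -0.60, limma adjusted p = 0.350). Its mean was 215 CPM in db/+ and 142 CPM in db/db. The part of the adipocyte markers in the Fbxo30 result was not tested.

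Fbxo21 and Cblb, the remaining ligase genes, were not called. Fbxo21 encodes another F-box protein of the FOXO program, and ran from 14.7 to 19.4 CPM in db/+, 17.1 to 24.4 in db/db, 5.49 to 12.9 in Con+Veh and 9.62 to 19.7 in STZ-HFD. Its log2 fold change was 0.16 in db/db (95% interval -0.34 to 0.65) and 0.05 in STZ-HFD (95% interval -0.45 to 0.55). Cblb encodes a RING-type ligase that targets the insulin receptor substrate IRS-1 in unloaded muscle. It was 67.7, 63.7 and 74.1 CPM in db/+ and 49.4, 58.5 and 49.0 CPM in db/db, with every db/db library below every db/+ library, yet the log2 fold change of -0.38 did not pass (95% interval -0.87 to 0.11, limma adjusted p = 0.362). In STZ-HFD Cblb ranged from 33.3 to 63.4 CPM against 47.2 to 109.7 CPM in Con+Veh (log2 -0.17, 95% interval -0.59 to 0.24). Together with Fbxo30, Cblb made 2 of 10 atrophy genes whose db/+ and db/db libraries did not overlap, beside the 25.8% of all genes tested.

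Mstn encodes myostatin, the TGF-β family ligand that limits muscle mass, and lies on chromosome 1 from 53061640 to 53068079 (plus strand). Its counts were low, 39 to 293 per library. Con+Veh libraries held 1.93, 6.09, 4.42 and 2.39 CPM and STZ-HFD libraries 9.004, 3.78, 8.08 and 7.02 CPM. All but 1 of the STZ-HFD libraries exceeded all controls. The log2 fold change was 0.88 (95% interval 0.08 to 1.69, limma adjusted p = 0.230). In the db/db model Mstn was 0.800, 2.19 and 1.09 CPM in db/+ and 3.51, 1.25 and 2.12 CPM in db/db, which overlapped (log2 0.66, 95% interval -0.39 to 1.70, limma adjusted p = 0.464).

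Eda2r encodes the receptor for the A2 form of ectodysplasin and is raised in several forms of muscle wasting. Its level was 1.36, 6.00, 3.38 and 1.85 CPM in Con+Veh and 7.07, 3.75, 7.11 and 6.69 CPM in STZ-HFD. Con+Veh replicate 2, which was also the highest control for Mstn and Fbxo30, fell inside the STZ-HFD range and the other controls below it. The log2 fold change was 1.09 (95% interval 0.33 to 1.85, limma adjusted p = 0.106), and it passed in limma without Con+Veh replicate 2 (1.38, adjusted p = 0.049). In db/+ Eda2r stood at 0.944, 1.37 and 1.35 CPM and in db/db at 2.58, 1.46 and 1.02 CPM, an overlap (log2 0.34, 95% interval -0.63 to 1.31, limma adjusted p = 0.710). Mstn and Eda2r were the closest pair among the 10 genes, with a Pearson r of 0.941 over the 14 libraries, followed by Fbxo32 and Trim63 at 0.848. These are descriptions over libraries that also share group, depth and muscle content.

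**Figure D3:**
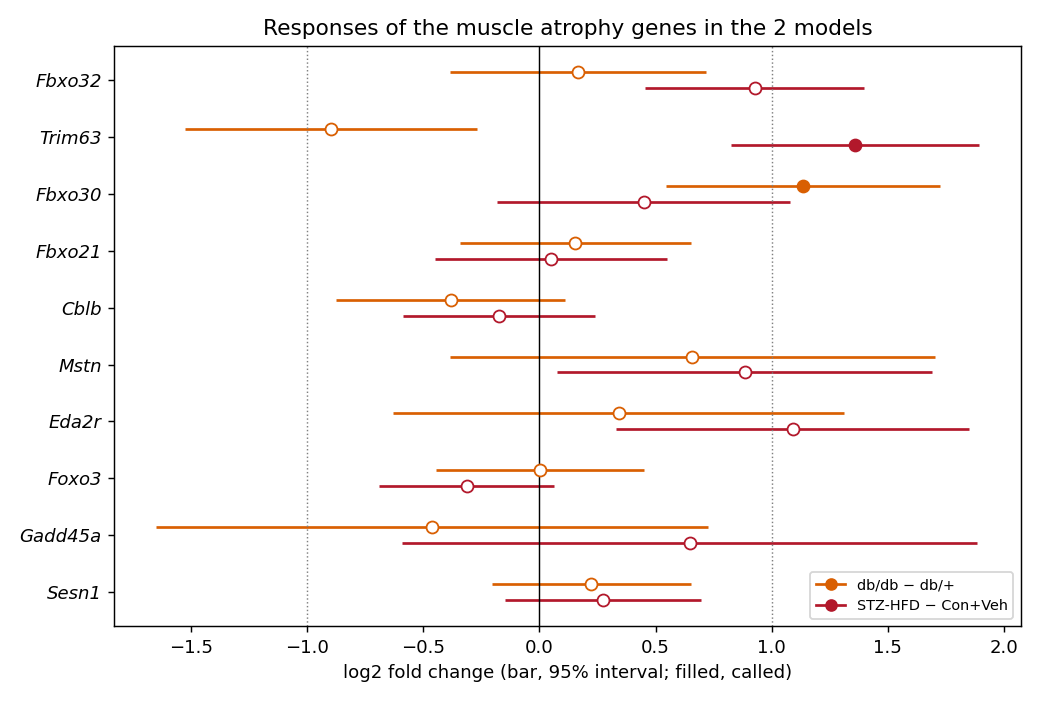
Log2 fold change of each atrophy gene (x axis) in db/db against db/+ (orange) and in STZ-HFD against Con+Veh (red), with 95% intervals from limma as bars, filled points for called genes and dotted lines at the minimum fold change. Trim63 is at -0.90 in db/db and 1.36 in STZ-HFD, and the gene nearest to 0 is Foxo3 in db/db and Fbxo21 in STZ-HFD.

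Foxo3, the transcription factor of the program, was not called in either model. It stood at 65.0, 61.9 and 67.6 CPM in db/+ and 50.8, 66.7 and 78.8 CPM in db/db. The log2 fold change was 0.00 with a 95% interval of -0.45 to 0.45, so changes of the size called elsewhere were outside the interval. In Con+Veh it was 48.3, 40.4, 47.3 and 41.7 CPM and in STZ-HFD 22.4, 40.3, 33.9 and 41.0 CPM, with the lowest value again in STZ-HFD replicate 1 (log2 -0.31, 95% interval -0.69 to 0.06, limma adjusted p = 0.382). FOXO proteins are controlled mainly by phosphorylation and location, which RNA levels do not show.

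The stress genes were also not called. Gadd45a, a growth arrest gene that promotes fibre atrophy under denervation, had the fewest counts of the 10 genes, 4 to 70 per library. It was 1.23, 0.661 and 0.870 CPM in db/+, 0.472, 0.689 and 0.738 in db/db, 1.06, 0.706, 1.79 and 0.217 in Con+Veh and 1.97, 2.41, 1.21 and 1.16 in STZ-HFD. The groups overlapped in both models, and the 95% intervals ran from -1.65 to 0.72 in db/db and from -0.59 to 1.88 in STZ-HFD, so a fall of 2-fold in db/db and a rise of 2-fold in STZ-HFD lay within them. Sesn1, a sestrin that restrains mTORC1, was 5.92, 9.37, 9.26 and 7.82 CPM in Con+Veh and 10.4, 11.8, 9.44 and 10.9 CPM in STZ-HFD. Every STZ-HFD library exceeded every control, by a margin of 9.44 to 9.37 CPM at the closest point, and the log2 fold change was 0.27 (95% interval -0.15 to 0.70, limma adjusted p = 0.513). With Trim63 that made 2 of 10 atrophy genes without overlap in STZ-HFD, beside 4.74% of all genes tested. The odorant receptor rate given above would supply 15.2% of the Sesn1 counts of STZ-HFD replicate 1 (10.4 CPM). Whether the groups stay apart without that part was not tested. In the db/db model Sesn1 ran from 6.09 to 7.91 CPM in db/+ and from 7.56 to 9.13 CPM in db/db (log2 0.22, 95% interval -0.21 to 0.65).

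Levels can be compared between genes only per length of exon. In Con+Veh the highest mean levels per kb belonged to Cblb (6.84 ± 2.56 CPM per kb, SD, n = 4), Fbxo32 (6.26 ± 0.799) and Foxo3 (5.87 ± 0.519), which did not differ beyond their spread. Trim63 followed at 2.95 ± 0.304, and Gadd45a and Eda2r were lowest at 0.534 each. In STZ-HFD Fbxo32 led with 10.5 ± 3.57 CPM per kb and Trim63 came next with 6.96 ± 0.884. In db/+ and db/db Foxo3 led with 8.56 ± 0.374 and 8.64 ± 1.85 CPM per kb (n = 3 each), while Fbxo32 was at 2.42 ± 0.662 and 2.68 ± 0.292.

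By Salmon's estimated transcript counts Fbxo32 had a single annotated transcript, and the leading transcript held 92.8% of the pooled Trim63 counts (Trim63-202), 99.3% for Fbxo30 (Fbxo30-202) and 76.3% for Mstn (Mstn-201). In single libraries that share ran from 29.9% to 100% for Trim63-202, 63.9% to 100% for Fbxo30-202 and 0% to 100% for Mstn-201. Gene totals summed from these transcripts gave Trim63 a log2 fold change of 1.66 in STZ-HFD (limma adjusted p = 0.016) and Fbxo30 one of 1.36 in db/db (limma adjusted p = 0.072). For Sesn1 they gave 1.66 in db/db (SE 0.69, limma adjusted p = 0.226) and 1.05 in STZ-HFD (SE 0.86, limma adjusted p = 0.676), far above the values from the gene counts but not called. The Sesn1 estimates were 0% (Con+Veh replicate 1) to 24.8% (db/db replicate 3) of its gene counts, and db/+ replicate 1 held only 6.19 estimated counts.

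The genes whose log2 levels followed each ligase gene most closely over the 14 libraries, among 13612 protein-coding genes, differed from ligase to ligase. For Trim63 they were Cacng6, a calcium channel subunit of skeletal muscle (Pearson r 0.976), Tcap, the titin cap (0.952), and Mylk4, a myosin light chain kinase (0.951). For Fbxo32 they were Klhl38 (0.977), Hadh, an enzyme of fatty acid oxidation (0.964), and Acyp2 (0.962). Fbxo30 followed Eny2 (0.941), Mcts1 (0.934) and Zfand6 (0.928), Fbxo21 followed S1pr3 (0.919), Pfn1 (0.907) and Abhd12 (0.904), and Cblb followed Kmt2a (0.966), Aff1 (0.937) and Rreb1 (0.933). Psmd12, a proteasome lid subunit, was among the closest genes for both Mstn (0.920) and Eda2r (0.934), beside Cct6a (0.923) and Atp5o (0.920) for Mstn and Cox7c (0.929) and Immt (0.925) for Eda2r. Foxo3 followed Kirrel (0.977), Tgfbr3 (0.974) and Lats1 (0.969), Gadd45a followed Coil (0.8291), Ptx3 (0.808) and its own paralog Gadd45b (0.806), and Sesn1 followed Fbxl5 (0.879), Zfp128 (0.874) and Napepld (0.870). Each r is over libraries that share group, depth and composition.

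Around the 10 genes, 75 further genes in 8 lists of the atrophy pathways were examined, of which 71 were tested. In STZ-HFD 3 were called higher and 0 lower by limma, beside 1.3% and 1.31% of all genes tested. At an unadjusted p under 0.05 in limma, 12 were higher and 5 lower, beside 8.34% and 9.54% of all genes tested. All 3 called genes belonged to the 15 other ubiquitin genes of atrophy, whose median log2 fold change was 0.41 against -0.04 over all genes tested. Fbxo40, a muscle F-box protein that targets IRS-1, ranged from 25.2 to 59.7 CPM in Con+Veh and from 36.0 to 141 CPM in STZ-HFD (log2 1.34, SE 0.31, limma adjusted p = 0.0263). Trim55, which encodes MuRF2, the relative of MuRF1, rose by 2.21 on the log2 scale (SE 0.46, limma adjusted p = 0.0174). Asb2, a ligase subunit of striated muscle, rose by 1.05 (SE 0.25, limma adjusted p = 0.0309). For Asb2 and Trim55 the responses of the 2 models also differed, by -1.93 (limma adjusted p = 0.0236) and -2.63 (limma adjusted p = 0.0499). Muscle markers rose beside these 3 genes as they did beside Trim63, and with the muscle covariate their limma adjusted p was 0.647 (Fbxo40), 0.206 (Trim55) and 0.780 (Asb2). None of the 3 was called by edgeR or DESeq2, and each lost its call in limma without Con+Veh replicate 3 or 4 or STZ-HFD replicate 3 or 4, with adjusted p from 0.055 to 0.423. Asb2 also lost it without Con+Veh replicate 2 (log2 just under the minimum, adjusted p = 0.037) and STZ-HFD replicate 2 (adjusted p = 0.053).

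In db/db 2 of the 71 pathway genes were called higher and 0 lower by limma, beside 1.23% and 0.432% of all genes tested. At an unadjusted p under 0.05 in limma, 6 were higher and 9 lower, beside 10.7% and 10.4% of all genes tested. Fst encodes follistatin, which binds and blocks myostatin and activins. It ran from 3.04 to 4.84 CPM in db/+ and from 7.26 to 9.21 CPM in db/db, without overlap (log2 1.16, SE 0.27, limma adjusted p = 0.0351). Trp53inp1, a p53 target that takes part in autophagy, ran from 6.61 to 9.33 CPM in db/+ and from 18.0 to 19.3 CPM in db/db (log2 1.26, SE 0.25, limma adjusted p = 0.0246). Without db/+ replicate 2 or 3 or any db/db replicate, the limma adjusted p was 0.068 to 0.142 for Fst and 0.062 to 0.088 for Trp53inp1, and with the GC trend removed it was 0.088 and 0.080. DESeq2 called Trp53inp1 alone (adjusted p = 0.026), and edgeR called 0 of 71 in either model.

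**Figure D4:**
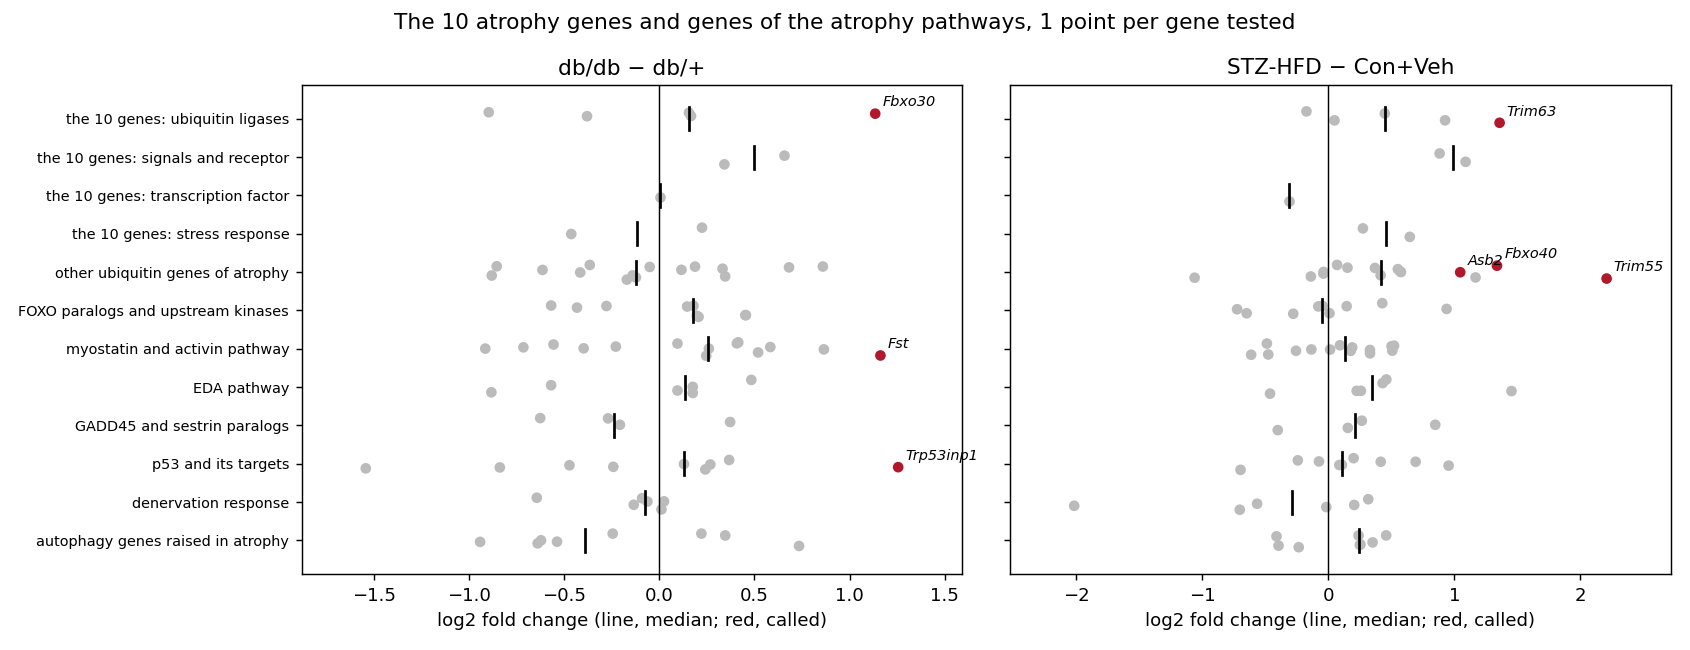
Log2 fold change (x axis) of each tested gene of the 10 atrophy genes by role and of 8 pathway lists, in db/db against db/+ (left) and in STZ-HFD against Con+Veh (right), with a black line at each list's median and called genes in red with their names. Called genes are Fbxo30, Fst and Trp53inp1 in db/db and Trim63, Trim55, Fbxo40 and Asb2 in STZ-HFD.

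The other lists held no called gene in STZ-HFD. Ncam1 of the denervation list passed the adjusted p there (log2 -0.70, limma adjusted p = 0.0416) and missed the minimum on fold change. Among the 9 FOXO paralogs and regulators the median log2 fold change was 0.18 in db/db and -0.05 in STZ-HFD, and Ppargc1a, the coactivator of mitochondrial genes that opposes atrophy, missed the threshold in STZ-HFD with 0.94 (limma adjusted p = 0.0502). The 14 genes of the myostatin and activin pathway had medians of 0.25 and 0.13, and the 6 tested genes of the EDA pathway had medians of 0.14 and 0.34. The 4 GADD45 and sestrin paralogs stood at -0.24 and 0.21, and the 9 genes of the p53 list at 0.13 and 0.11. Of 9 genes of the denervation response, 6 were tested, with medians of -0.08 and -0.29. The other 3, Myog, Dach2 and Chrng, the embryonic subunit of the acetylcholine receptor, were below the expression minimum. The 8 autophagy genes had medians of -0.39 in db/db and 0.25 in STZ-HFD, and 0 of them were called in either direction.

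**Figure D5:**
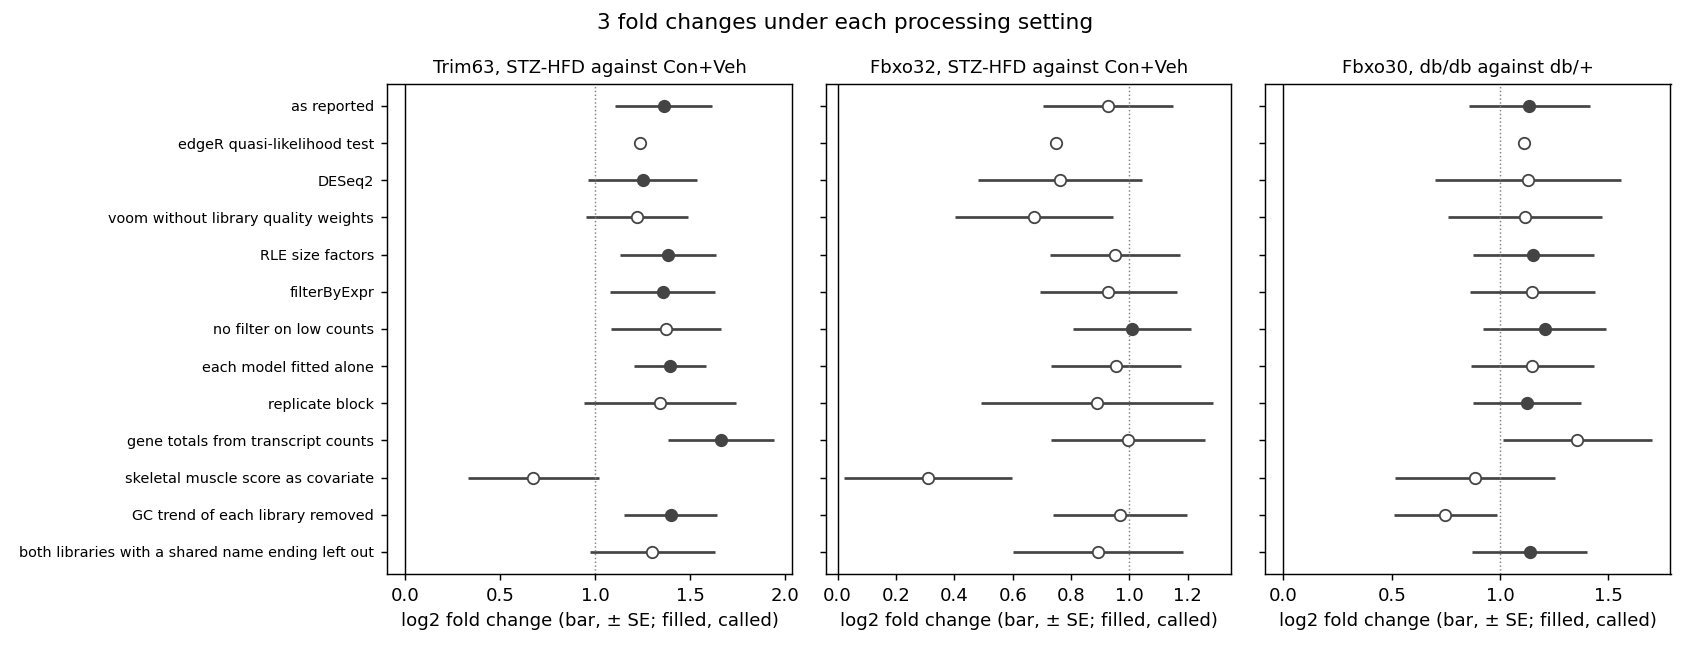
Log2 fold change (x axes) of Trim63 and Fbxo32 in STZ-HFD and of Fbxo30 in db/db under each processing setting (y axis), with bars of ± 1 SE where the tool gives one (edgeR's quasi-likelihood test does not) and filled points where the gene was called. The muscle covariate gives the lowest value for both STZ-HFD genes, 0.68 and 0.31, and removal of the GC trend the lowest for Fbxo30, 0.75.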

How the data were processed

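Pooled discs were pulverised, and cDNA was amplified from total RNA before sequencing. The authors aligned reads to GRCm38 (Ensembl 101) with STAR and deposited whole-number gene counts from featureCounts, with no normalization. Expected counts per transcript, which the authors estimated with Salmon, were also deposited and were rounded after summing to genes. Whether counting used strand was not given in the sources used here. Of 55774 lines, 287 were repeats. The expression minimum was a CPM over 1 in 3 or more libraries, TMM factors were applied (edgeR 4.0.16), and voomWithQualityWeights (limma 3.58.1, R 4.3.3) was fitted over all 14 libraries with 1 mean per group. P-values were adjusted by Benjamini-Hochberg over all genes tested. CPM values use TMM-scaled library sizes, exon lengths come from GENCODE M21, and muscle-scaled levels are CPM divided by the muscle marker sum. Library weights ran from 0.275 (Con+Veh replicate 1) to 3.05 (Con+Veh replicate 3). Replicates are single mice, and the fit held no term for batch. No pair of libraries of a group agreed within sampling noise (chi-square per degree of freedom 57.0 or more). The scripts were checked on simulated counts.

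The 10 genes, the pathway and marker lists and the alternatives were chosen with earlier results of these data known. Named genes were all 10 members, pathway genes called in a model, markers that moved with a result, and the 3 protein-coding genes most correlated with each member. Further marker lists gave summed levels of 197 to 998 CPM (adipocyte, 7 genes), 73.0 to 219 (macrophage, 7), 19.5 to 70.4 (erythroid, 5) and 70.6 to 1450 (osteoblast, 5) over all libraries, with 0 erythroid markers called. As alternatives, the fit was repeated with DESeq2 1.42.0, edgeR's quasi-likelihood test, no quality weights, RLE factors, 2 other filters, each model alone, a replicate block, transcript totals, a muscle covariate, GC trend removal in 20 bins, and leaving out libraries.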

Additional observations from a re-analysis of the deposited data

Results flagged for a closer look

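The response of Trim63 differed between the models, with a db/db response minus STZ-HFD response of -2.26 on the log2 scale in limma's test of the difference. The db/db value was -0.90 and the STZ-HFD value 1.36, and the muscle marker sums moved in the same directions.

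Eda2r in STZ-HFD replicate 2 lay far below the rest of its group, at 3.75 CPM against 6.69 to 7.11 CPM, with 0.874 of the group's range between it and its nearest neighbour, which is past Dixon's critical value for 4 samples. It was 1 of 20 groups of 4 examined, and chance gives about 1 in 20. The rest of the group includes STZ-HFD replicate 1 at 7.07 CPM, where the odorant receptor rate would supply 32.98% of the Eda2r counts. Whether the flag holds without that part was not tested.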

How the results depend on the processing

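Of the 10 atrophy genes, 1 was called in each comparison. In db/db the number was 0 by edgeR, by DESeq2, without quality weights, with filterByExpr, with each model fitted alone, from transcript totals, with the muscle covariate and with the GC trend removed, 2 with the replicate block (Fbxo30 and Mstn, the latter at 1.21), and 0 to 1 with single libraries left out. In STZ-HFD it was 0 by edgeR, without quality weights, with the replicate block, with the muscle covariate and without both libraries that share a name ending (Con+Veh replicate 2 and STZ-HFD replicate 4), 1 with no filter on low counts (Fbxo32 in place of Trim63, whose adjusted p was 0.057 in limma), 2 with no minimum on the fold change (Trim63 and Fbxo32), and 0 to 2 with single libraries left out. For the difference of the responses it was 0 by edgeR, without quality weights, with the block and with the muscle covariate, and 0 to 1 with single libraries left out. Pathway genes called in db/db numbered 2, and 0 by edgeR, without quality weights, with the muscle covariate and with the GC trend removed, 1 by DESeq2 and from transcript totals, and 0 to 2 with single libraries left out. In STZ-HFD they numbered 3, and 0 by edgeR, by DESeq2, without quality weights, with the block, from transcript totals, with the muscle covariate and without the 2 libraries named above, 1 with filterByExpr or no filter, 5 with the GC trend removed, and 0 to 4 with single libraries left out. The share of all genes called moved from 1.66% to 8.77% with the block, 0.0532% without quality weights and 0 by edgeR in db/db, and from 2.61% to 0.0355%, 0.112% and 0.171% in STZ-HFD. In db/db it was 1.25% by DESeq2, 0.979% with filterByExpr, 2.84% with each model fitted alone and 0.98% from transcript totals. With the muscle covariate it was 1.22% there, and 1.09% with the GC trend removed. In STZ-HFD it was 1.64% by DESeq2, 0.9% with filterByExpr, 0.277% with no filter and 0.381% from transcript totals. With the muscle covariate it was 0.467%, with the GC trend removed 2.91% and without the 2 libraries named above 1.45%. With single libraries left out the share ran from 0.125% to 2.32% in db/db. In STZ-HFD it ran from 0.102% (without Con+Veh replicate 3) to 3.8%. For the difference of the responses the share was 1.77%, and 0.0296% by edgeR, 0.0177% without quality weights, 0.0118% with the block and 0.207% with the muscle covariate. The cause of these moves was not tested.

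Replicate numbers did not pair the mice: deviations from the group mean in libraries of the same number had a mean correlation of -0.0911 in the db/db model and -0.111 in the STZ-HFD model, against 0.0456 and 0.0376 for other pairs. Signs turned only for values that were not called. With the muscle covariate the difference of responses was 0.47 for Fbxo32, 0.87 for Mstn and 0.36 for Sesn1, Fbxo21 in STZ-HFD was -0.18 and Foxo3 in db/db -0.15. From transcript totals Fbxo21 in STZ-HFD was -0.074, and the difference was 0.053 for Cblb and 0.61 for Sesn1. For Fbxo21 the difference was -0.14 by edgeR, -0.14 by DESeq2, -0.21 without quality weights and -0.021 without the 2 libraries named above, and for Cblb it was 0.073, 0.083 and 0.038 under the first 3 of these. With the block the difference was 0.18 for Mstn and Foxo3 in db/db was -0.14. Foxo3 in db/db was -0.0084 without quality weights and -0.00072 without the 2 libraries. With single libraries left out, values ran from -0.047 to 0.39 for Fbxo32 in db/db, -0.080 to 0.22 for Fbxo21 in STZ-HFD, -0.15 to 0.17 for Foxo3 in db/db, and, for the difference, -0.069 to 0.24 for Fbxo21, -0.59 to 0.23 for Mstn and -0.18 to 0.04 for Sesn1. All 10 genes passed the expression minimum, so the test planned for genes below it was not needed. The difference has no value with each model fitted alone. Counts were lowest for Gadd45a, at 4 to 70 per library, and what depth alone adds to its spread was not tested.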
